A study of Mus musculus with 6 samples.

Results

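The simple epithelial keratins Krt7, Krt8, Krt18, Krt19, Krt20 and Krt23 were followed in embryonic mouse gut at E14.5, ahead of villus formation, with and without the transcription factor gene Klf5. The members were the 6 keratin genes of single-layered epithelia named here, each represented by the array row that carries its symbol alone. All 6 had 1 such row, out of 19938 genes with a symbol on the array, and no row of theirs was shared with another symbol. Each row is a probe set of an Affymetrix Mouse Gene 1.0 ST array, and values are log2 signals, so that a difference of 1 is a change by a factor of 2. The Klf5-deleted group had the genotype Klf5D/D. The controls had the genotype Klf5wt/wtShhEGFP/Cre+, which means wild-type Klf5 together with an allele that puts EGFP/Cre under the control of Shh, a locus active in the gut epithelium. The labels give the strain of both groups as mixed (part C57Bl/6), and they do not say which promoter drove Cre in the Klf5D/D embryos. Each group had 3 arrays, and each array carried total RNA from a pool of 2 intestines, cut from the segment lying 1.5 cm anterior to the cecum. The segments were whole, so a keratin signal was read over mesenchyme, muscle, nerves and mesothelium as well as epithelium. In such tissue, fewer epithelial cells and less keratin RNA per epithelial cell cannot be told apart. The comparison addressed which genes depend on KLF5 in the epithelium before villus formation.

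Keratins are the intermediate filament proteins of epithelial cells. A keratin filament is an obligate heteropolymer that pairs an acidic type I keratin with a basic type II keratin, and it runs between desmosomes, hemidesmosomes and the nuclear surface. Of the genes described here Krt7 and Krt8 encode type II keratins, and Krt18, Krt19, Krt20 and Krt23 encode type I keratins. Krt8 and Krt18 are the founding pair of simple epithelia and are expressed from the early embryo onwards. In the intestine Krt19 is made along the whole epithelium, while Krt20 is known as a keratin of differentiated cells on the villus.

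The RefSeq promoter table of assembly GRCm38.p6 held 5 of the 6 members, all except Krt19. The sequences are shown because Klf and Sp factors are known to bind GC boxes and CACCC-type boxes, and because 4 of these 5 genes fell together in the comparison while Krt20 did not pass. Each is the 250 bases before the annotated transcription start, 5′ to 3′ on the strand of the gene. The windows were chr15:101412153-101412402 on the plus strand for Krt7, chr15:102004343-102004592 on the minus strand for Krt8, chr15:102027966-102028215 on the plus strand for Krt18, chr11:99438154-99438403 on the minus strand for Krt20 and chr11:99493121-99493370 on the minus strand for Krt23. Capitals mark GGGCGG or GGGTGG or GGCGTGG on either strand and TATAAA on the strand of the gene. No match overlapped another in these windows.
Krt7: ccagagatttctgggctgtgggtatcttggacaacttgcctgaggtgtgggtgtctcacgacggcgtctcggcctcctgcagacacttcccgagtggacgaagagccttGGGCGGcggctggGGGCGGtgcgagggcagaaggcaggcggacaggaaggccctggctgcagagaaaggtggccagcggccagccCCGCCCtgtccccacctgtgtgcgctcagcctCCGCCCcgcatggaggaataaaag
Krt8: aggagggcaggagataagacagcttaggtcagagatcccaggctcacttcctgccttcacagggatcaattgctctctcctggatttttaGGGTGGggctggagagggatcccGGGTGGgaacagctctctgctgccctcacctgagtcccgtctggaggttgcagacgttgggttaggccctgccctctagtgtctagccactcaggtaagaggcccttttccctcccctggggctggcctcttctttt
Krt18: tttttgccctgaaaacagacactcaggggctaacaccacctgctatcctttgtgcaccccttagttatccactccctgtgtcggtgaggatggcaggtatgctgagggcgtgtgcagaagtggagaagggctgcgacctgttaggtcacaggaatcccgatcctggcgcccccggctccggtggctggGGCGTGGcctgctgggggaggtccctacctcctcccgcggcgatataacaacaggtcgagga
Krt23: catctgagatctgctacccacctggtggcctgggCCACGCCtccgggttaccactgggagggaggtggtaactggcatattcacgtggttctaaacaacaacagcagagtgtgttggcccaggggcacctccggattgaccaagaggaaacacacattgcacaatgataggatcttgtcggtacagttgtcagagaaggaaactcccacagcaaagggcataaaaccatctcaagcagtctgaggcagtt
Krt20: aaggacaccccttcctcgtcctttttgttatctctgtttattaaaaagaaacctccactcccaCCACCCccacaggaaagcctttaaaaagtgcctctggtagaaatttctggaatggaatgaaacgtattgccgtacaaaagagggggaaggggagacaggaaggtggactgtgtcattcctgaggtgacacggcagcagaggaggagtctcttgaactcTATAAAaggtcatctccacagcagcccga

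Krt7 held 4 copies of GGGCGG, beginning 141, 128, 56 and 24 bases before the start. Krt8 held 2 copies of GGGTGG, beginning 160 and 137 bases before the start, and a TATAAA that ran across the annotated start and so out of the printed window. Krt20 held 1 GGGTGG, as CCACCC 187 bases before the start, and a TATAAA 29 bases before it. Of CACCC sequences only GGGTGG, or CCACCC on the other strand, was searched, so other CACCC sequences in the windows carry no capitals. Krt18 and Krt23 held neither GGGCGG nor GGGTGG. Each held 1 GGCGTGG, beginning 62 bases before the start in Krt18 and 216 bases before it in Krt23. That motif was added after the sequences were seen, so its presence cannot describe what the fallen genes share. Over all 32851 promoters of the table cut to the same 250 bases, 32.7% held GGGCGG, 28.1% GGGTGG, 7.59% TATAAA and 7.54% GGCGTGG. The share of G and C was 66% for Krt7, 60.4% for Krt18, 58% for Krt8, 52.8% for Krt23 and 48% for Krt20, beside a median of 52.4% over all promoters. A match of letters in these windows is a description of sequence and does not show binding.

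The arrays were close to each other over all rows. Their medians lay between 7.81 and 7.89, and pairs of arrays correlated at 0.994 to 0.997 within groups and at 0.989 to 0.993 between groups, taken over rows, and rows are no independent replicates. The deleted gene Klf5 gave 10.2, 10.5 and 10.3 without Klf5 and 11.5, 11.7 and 11.8 in the controls, a fall of 1.33 (SE 0.08, adjusted p = 9.62e-05), which left 39.8% of the control signal. The pools also differed in the sex of the embryos. From 3 Y-linked genes the male share was estimated at 103%, 102% and 95% in the Klf5-deleted pools. In the controls it was 0%, 47.1% and 40.8%. By construction 100% is the mean of the Klf5-deleted pools and 0% is the pool with the lowest signal of those genes. Xist gave 5.89 to 6.47 without Klf5 and 11.9 to 12.6 with it. The labels do not say whether pools came from separate litters, so the p-values speak only of the spread among these pools.

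In the Klf5-deleted intestine 5 of the 6 simple epithelial keratins fell, 0 rose, and Krt20 did not pass the test. The falls ran from a signal at 34.8% of the control level for Krt19, over 51.4% for Krt7, 54.6% for Krt23 and 56.6% for Krt8, to 77.8% for Krt18. The test was limma's moderated test over all genes, with a Benjamini-Hochberg adjusted p of 0.05 as threshold. By that rule 8.58% of all genes were lower and 8.95% higher. The 3 Klf5-deleted arrays lay below all 3 controls for the same 5 keratins, against 15.9% of all genes, and 20.1% of all genes lay apart in the other direction. The median log2 fold change of the 6 keratins was −0.85, beside 0.02 over all genes. When the estimated male share entered the fit as a covariate, 0 of the 6 passed, where 0.416% of all genes did in either direction and 0.396% as lower. In that fit Krt19 was at −1.56 (adjusted p = 0.0508), Krt7 at −1.02 (adjusted p = 0.115), Krt23 at −0.78 (adjusted p = 0.111), Krt8 at −0.72 (adjusted p = 0.168) and Krt18 at −0.41 (adjusted p = 0.266). Among the 3 controls alone, whose male share ran from 0% to 47.1%, the values of each of these 5 keratins spanned at most 0.07. These are 3 pools, none with a male share as high as in the Klf5-deleted pools. The part of embryo sex in the keratin differences was not tested beyond the fit with the covariate. In that fit the SE of Krt19 was 0.21, against 0.08 with group alone, and that of Krt7 was 0.19 against 0.07. Every Klf5-deleted pool had a higher male share than any control, so sex and genotype cannot be told apart in these pools.

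**Figure D1:**
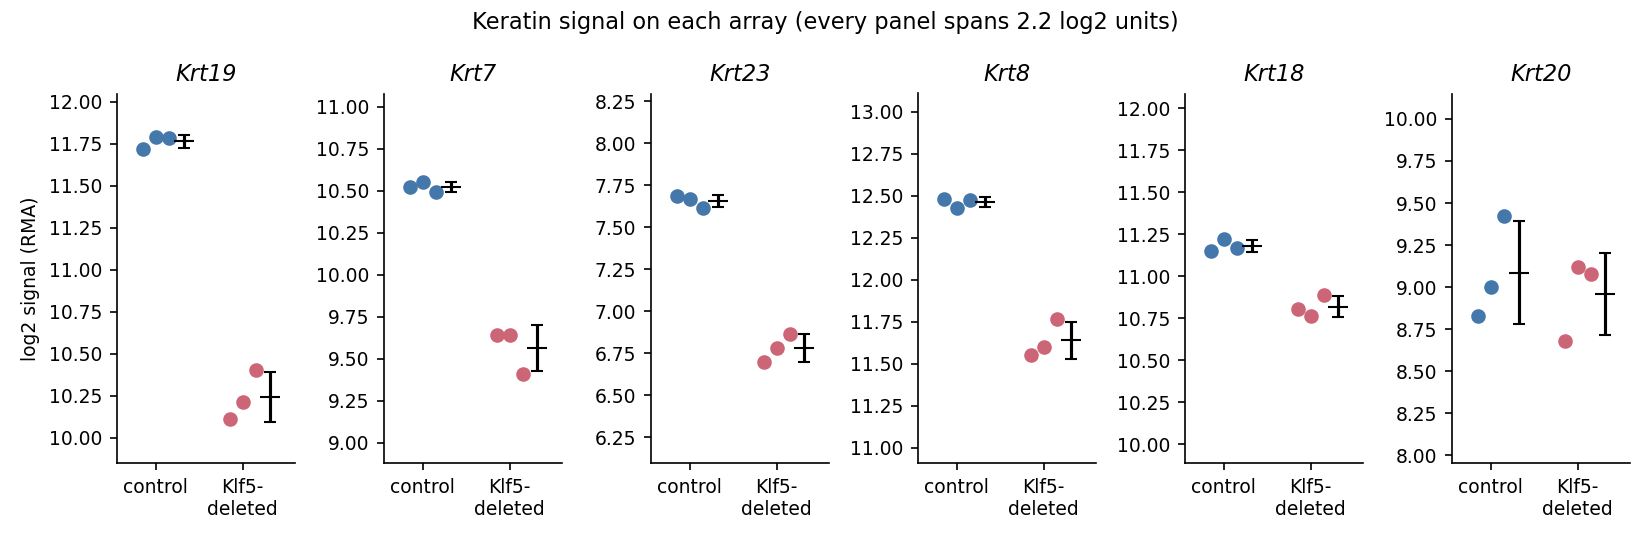
Log2 signal of each keratin on the 6 arrays, controls in blue and Klf5-deleted arrays in red, with the mean and SD of each group as black bars beside the points (n = 3). The groups lie apart for Krt19, Krt7, Krt23, Krt8 and Krt18 and overlap for Krt20.

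Among the type I keratins Krt19 had the lowest log2 fold change. Krt19 encodes the smallest keratin, which lacks most of the tail that other keratins carry. It read 10.1, 10.2 and 10.4 without Klf5 against 11.7, 11.8 and 11.8 in the controls. Every Klf5-deleted array lay over 1 log2 unit below every control. The signal was 2.88-fold lower, a fall of 1.52 (SE 0.08, 95% interval −1.70 to −1.35, adjusted p = 3.97e-05). Ordered by log2 fold change from the lowest, Krt19 was number 98 of 19938 genes.

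Krt18, the usual type I partner of Krt8, changed less. Its signal was 10.8, 10.8 and 10.9 without Klf5 and 11.1, 11.2 and 11.2 in the controls. The groups did not overlap, and the difference was small beside that of Krt19 but large beside the spread, with an SD of 0.06 without Klf5 and 0.04 in the controls. Krt18 fell by 0.36 (SE 0.05, 95% interval −0.48 to −0.24, adjusted p = 0.00319).

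Krt23, a divergent type I keratin of epithelia whose function is less well known, was the dimmest of the 6 rows. It gave 6.70, 6.78 and 6.87 without Klf5 and 7.68, 7.67 and 7.62 in the controls. The highest Klf5-deleted array stood below the lowest control. It fell by 0.87 (SE 0.06, 95% interval −1.0 to −0.74, adjusted p = 9.62e-05). Array signals near the lower end of the scale are known to compress changes.

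Krt20 was the exception among the type I genes. Its arrays read 8.68, 9.12 and 9.07 without Klf5 and 8.83, 9.0 and 9.42 in the controls. The groups overlapped, with the lowest value in a Klf5-deleted array and the highest in a control. The log2 fold change was −0.13 (SE 0.17, adjusted p = 0.697), with a 95% interval from −0.52 to 0.27, so that a fall as large as that of Krt18 lies within it and one as large as those of Krt7, Krt8, Krt19 or Krt23 does not. Krt20 also varied more between arrays of one group than the other keratins did, with an SD of 0.24 without Klf5 and 0.31 in the controls. Of all genes 98.6% had a smaller SD within groups. Its sign turned on leaving out Klf5-deleted replicate 1 (0.013) or control replicate 3 (0.043), and with the male share as covariate it was −0.59 (adjusted p = 0.553).

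Both type II members fell. Krt8 encodes the type II keratin found in simple epithelia throughout the body. Its signals were 11.6, 11.6 and 11.8 without Klf5 and 12.5, 12.4 and 12.5 in the controls. The groups lay apart, and Krt8 fell by 0.82 (SE 0.06, 95% interval −0.97 to −0.67, adjusted p = 0.000205). Krt7, a type II keratin best known from ducts, glands and mesothelium, read 9.64, 9.64 and 9.41 against 10.5, 10.5 and 10.5. Here too no Klf5-deleted array reached a control, and Krt7 fell by 0.96 (SE 0.07, 95% interval −1.12 to −0.79, adjusted p = 0.000189).

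Since a filament needs both types, the change of each keratin was set against that of every other on the same array. The difference between the log2 signals of a pair was compared between groups for all 15 pairs, with the exact two-sided permutation test, whose smallest p for 3 arrays against 3 is 0.1. None of these tests could therefore reach 0.05, and after adjustment over the 15 pairs the smallest p was 0.136. For 11 of the 15 pairs the values of the groups did not overlap. The genes had already been seen to differ in log2 fold change, and the share of such pairs among all genes was not computed. Signals of different probe sets are not on one scale, so only the change of a difference is read, not the difference itself. Whether the probe sets compress a change to different degrees was not tested.

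The Krt8 to Krt18 pair, the canonical filament of simple epithelia, differed in log2 fold change, though the permutation test could not reach 0.05. Krt8 minus Krt18 was 0.75, 0.84 and 0.88 without Klf5 and 1.33, 1.21 and 1.30 in the controls. The groups lay apart by more than their spread, and the log2 ratio was lower without Klf5 by −0.46 (SE 0.05, exact p = 0.1, adjusted p = 0.136). Krt19 stood apart from Krt18 most of all pairs without Krt20, at −1.16 (SE 0.06, exact permutation p = 0.1, adjusted p = 0.136), with Krt19 minus Krt18 between −0.69 and −0.49 without Klf5 and between 0.57 and 0.61 in the controls. Krt19 minus Krt8 changed by −0.70 (SE 0.04), again with no overlap. Against Krt20, the values of Krt19, Krt7, Krt23 and Krt8 changed by −1.40, −0.83, −0.75 and −0.70, each without overlap and with SE from 0.19 to 0.27.

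Other pairs were not told apart. Krt7 and Krt8 differed in their change by −0.14 (SE 0.14, exact permutation p = 0.5), Krt7 and Krt23 by −0.09 (SE 0.12, exact permutation p = 0.8), and Krt23 and Krt8 by −0.05 (SE 0.04, exact permutation p = 0.3). Krt18 and Krt20 differed by −0.24 (SE 0.23, exact permutation p = 0.3). In these 4 pairs the groups overlapped, which does not show that the genes changed equally. By overlap of the groups alone, the order of the log2 fold changes was Krt19, then Krt7, Krt23 and Krt8 without separation, then Krt18. Krt20 was not separated from Krt18, and no pair had an adjusted permutation p under 0.136.

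Each keratin was also set against a pair of general epithelial genes by subtracting, on each array, the mean of Epcam and Cdh1, which encode the adhesion proteins EpCAM and E-cadherin. Epcam read 11.1, 11.3 and 11.2 without Klf5 and 11.7, 11.8 and 11.9 in the controls, and Cdh1 10.8, 11.2 and 11 against 11.9, 11.9 and 12.0. Both fell, Epcam by 0.61 (SE 0.07, adjusted p = 0.00187) and Cdh1 by 0.94 (SE 0.10, adjusted p = 0.00087). Relative to their mean Krt19 was lower in the Klf5-deleted arrays, at −0.81, −1.04 and −0.71 against −0.11, −0.08 and −0.14 in the controls. That is a change of −0.75 (SE 0.10, exact permutation p = 0.1, adjusted over the 6 keratins p = 0.2), with no overlap. Krt18 was higher relative to the same mean, by 0.41 (SE 0.12), and so was Krt20, by 0.65 (SE 0.16), each without overlap. Both had the same exact permutation p of 0.1. That mean itself fell, so a gene that fell less or did not change comes out higher against it. The share of all genes whose groups lie apart in this way was not computed. Krt8 (−0.05, SE 0.10), Krt23 (−0.10, SE 0.09) and Krt7 (−0.18, SE 0.13) overlapped between the groups, with exact permutation p-values of 0.8, 0.4 and 0.4.

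**Figure D2:**
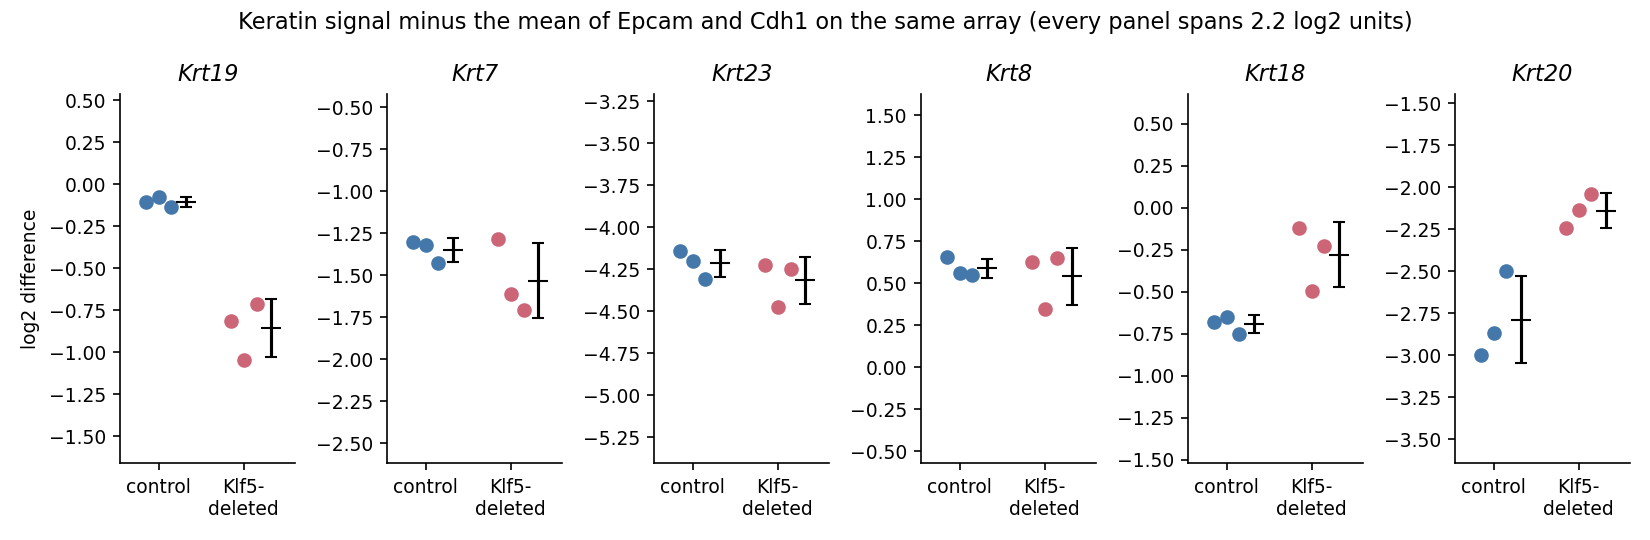
Log2 signal of each keratin minus the mean of Epcam and Cdh1 on the same array, controls in blue and Klf5-deleted arrays in red, with the mean and SD of each group (n = 3). Krt19 lies lower in the Klf5-deleted arrays, Krt18 and Krt20 lie higher, and the groups overlap for Krt7, Krt23 and Krt8.

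The wider epithelial list, 27 genes used by epithelia of many organs without keratins, had 26 measured members. Of these 23 fell and 0 rose, with a median log2 fold change of −0.81 beside −0.85 for the 6 keratins. The shares over all genes were 8.58% lower and 8.95% higher. Single genes of the list ran from −1.75 (Ovol1) to 0.15 (Cldn6), a range that holds the changes of all 6 keratins, Krt19 and Krt18 included, so a difference from the mean of Epcam and Cdh1 is not one from epithelial genes at large. The smallest p-values belonged to Bspry (a fall of 1.25, SE 0.08) and Tjp3, which encodes the tight junction scaffold ZO-3 (a fall of 1.18, SE 0.08). The summed linear signal of this list was 27602 to 31851 without Klf5 and 47741 to 51012 in the controls. How much of the keratin change goes with this loss of epithelial signal was not tested.

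No other keratin passed the test, which 17.5% of all genes passed in either direction. The array measured 46 other keratin genes, of which 20 are keratins of stratified or basal epithelia and 26 are hair keratins or others. By limma 0 of the 46 passed at an adjusted p of 0.05, and 1 had an unadjusted p under 0.05, Krt74, a keratin of hair follicles (0.20, adjusted p = 0.153). Their log2 fold changes lay between −0.16 and 0.20 with a median of 0.01. The basal keratin genes Krt5 and Krt14 were at 0.18 (SE 0.36) and 0.15 (SE 0.07) and did not pass. Mean signals of the 46 lay between 5.23 and 8.94. With the dimmest 25% of genes left out 25 of the 46 remained, and with the dimmest 50% left out 1 did. Whether the dim ones are expressed in this tissue was not tested, and a gene without RNA there could not fall. Krt23, itself among the dimmest 50%, fell from within that range.

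**Figure D3:**
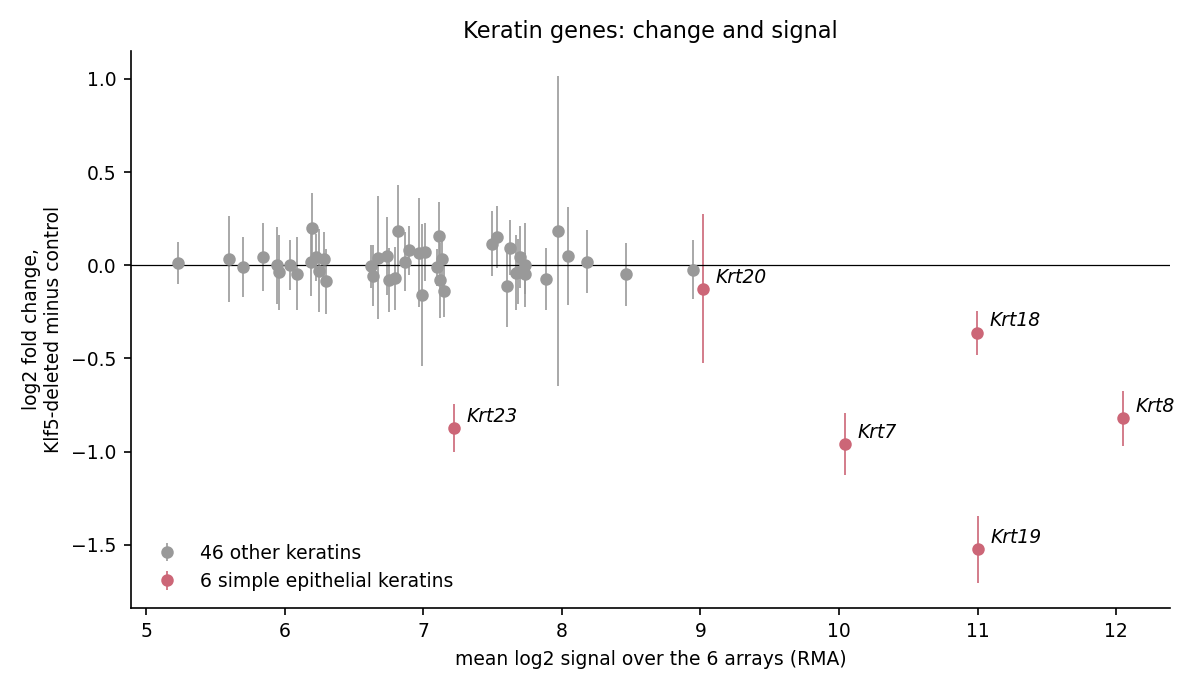
Log2 fold change (Klf5-deleted minus control) with its 95% interval against the mean log2 signal over the 6 arrays, for 6 simple epithelial keratins in red and 46 other keratins in grey. Krt23 lies below 0 at a mean signal of 7.22, where the other keratins lie near 0.

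Keratin genes lie in a type I cluster and a type II cluster, and the genes beside the members that are not members themselves lay near 0. In the RefSeq order of protein-coding genes (GRCm38.p6), Krt8 and Krt18 are direct neighbours on chromosome 15, and Krt20 and Krt23 are direct neighbours on chromosome 11. Krt8 and Krt18 both fell, with the log2 fold changes given above. Krt23 minus Krt20 changed by −0.75 (SE 0.22), between −2.34 and −1.98 without Klf5 and between −1.81 and −1.14 in the controls (exact permutation p = 0.1). The other direct neighbours of the 6 members were Krt12, Krt39, Krt15, Krt9, Krt80, Krt87, Krt78 and the translation factor gene Eif4b. These 8 lay between −0.11 and 0.09, and 0 of them passed in limma's test, with 0 also at an unadjusted p under 0.05. Krt19 thus lay between Krt15 (−0.11, adjusted p = 0.509) and Krt9 (−0.04, adjusted p = 0.791). All of these neighbours but Eif4b are among the 46 other keratins, of which 1 remained with the dimmest 50% of genes left out. Whether they are expressed in this tissue was not tested, and a gene without RNA there could not fall.

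Genes whose products anchor keratins at desmosomes or link them to other structures fell in part. Of 18 measured desmosome and plakin genes 8 fell and 0 rose, with a median of −0.15, where 8.58% of all genes were lower and 8.95% higher. The armadillo protein gene Pkp2 read 8.63, 8.91 and 8.90 against 9.84, 9.84 and 9.91 and fell by 1.05 (SE 0.08, adjusted p = 0.000199). Ppl, which encodes the plakin periplakin, fell by 0.74 (SE 0.06, adjusted p = 0.000205). The other falls were those of Dsc2, Perp, Eppk1, Dsg2, Jup and Dsp, from −1.0 to −0.41. The plakin gene Dst moved the other way, at 0.24 (SE 0.07, adjusted p = 0.0691), without overlap, and did not pass. Dsc3 had the highest log2 fold change of the list, at 0.41 (SE 0.19, adjusted p = 0.208), with overlap, and did not pass either.

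Of 21 measured genes whose products bind, modify or cleave keratins 5 fell and 0 rose, with a median of 0.01. By the same rule 8.58% of all genes were lower and 8.95% higher. The groups lay apart as lower for 8 of the 21 and as higher for 8, beside 15.9% and 20.1% of all genes. Of those higher, Tchp had the smallest p, at 0.20 (SE 0.06, limma adjusted p = 0.0698), and did not pass. Fam83h, a scaffold that brings casein kinase 1 to keratin filaments, read 8.49, 8.47 and 8.49 without Klf5 and 9.69, 9.68 and 9.69 in the controls. Its arrays lay almost on each other within each group, and it fell by 1.20 (SE 0.04, adjusted p = 8.14e-06). Sfn, which encodes the epithelial 14-3-3 protein sigma, fell by 1.47 (SE 0.10, adjusted p = 0.000164). The remaining falls were Prkcz (−0.53), Casp6 (−0.25) and Tradd (−0.20). The calls of Casp6 and Tradd lay near the threshold, and their log2 fold changes ran from −0.29 to −0.21 and from −0.23 to −0.17 with 1 array left out. Casp6 did not pass without Klf5-deleted replicate 2 or 3 or control replicate 2 or 3 (adjusted p up to 0.0629). Tradd did not pass without Klf5-deleted replicate 1 or 3 or any of the controls (adjusted p up to 0.125), so that 3 genes of this list passed without control replicate 2 or without control replicate 3.

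Intermediate filament genes other than keratins, the lamin genes included, were also read. Of 18 measured, 0 fell and 1 rose, Iffo2 (0.23, SE 0.05, adjusted p = 0.0203), with a median of 0.01. That share of risers is near the 8.95% of all genes that were higher, and 8.58% of all genes were lower. Iffo2 missed the threshold on leaving out any of the controls (adjusted p = 0.0605 without replicate 1, 0.0743 without replicate 2 and 0.0502 without replicate 3) and with centring on the array median. With that centring the list had 2 genes lower and 0 higher, and with quantile normalization 2 in each direction, so the list has no settled direction. Without Klf5-deleted replicate 2, or without Klf5-deleted replicate 3, 2 genes of the list passed, 1 in each direction. Des, the intermediate filament gene of muscle, was at −0.27 (SE 0.08, adjusted p = 0.0520), and Vim, that of mesenchyme, at 0.14 (SE 0.04, adjusted p = 0.0718).

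**Figure D4:**
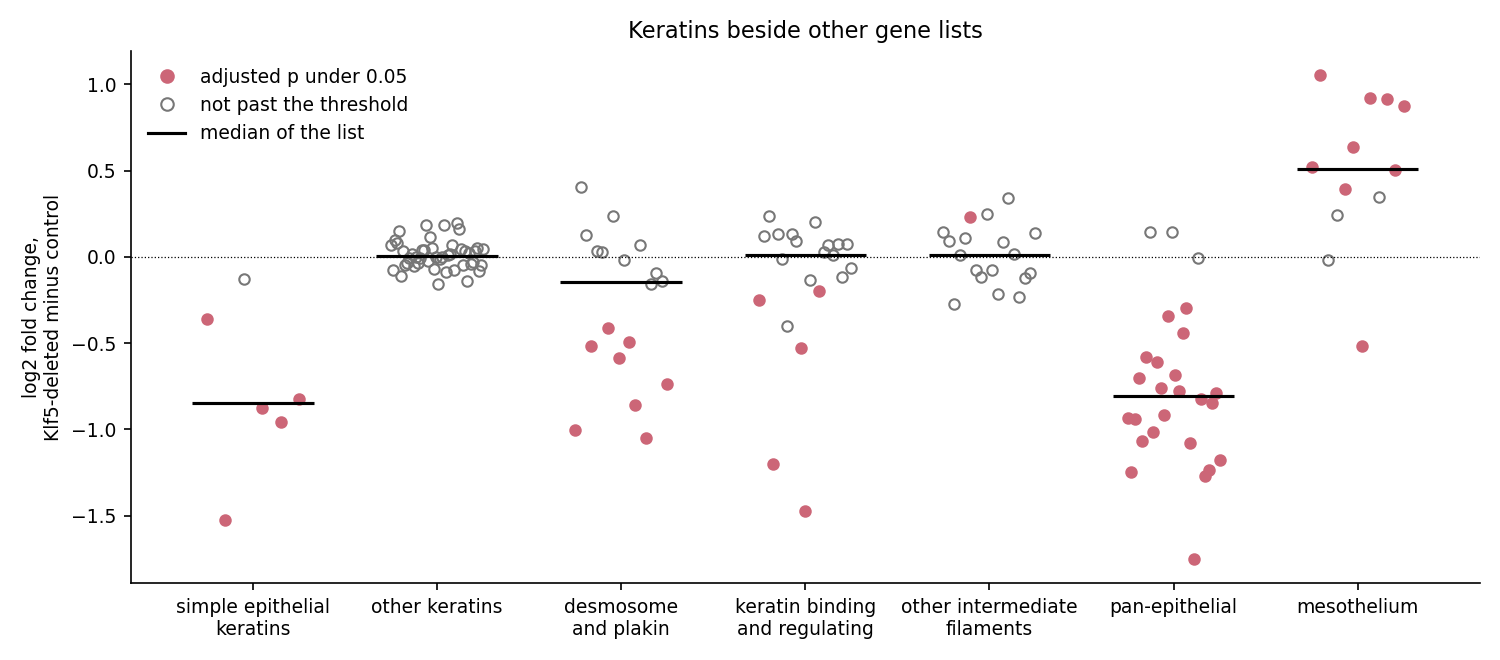
Log2 fold change (Klf5-deleted minus control) of every measured gene in 7 lists, filled red where the adjusted p is under 0.05 and open where it is not, with the median of each list as a black line. The simple epithelial keratins and the pan-epithelial genes lie mostly below 0, other keratins lie near 0, and mesothelial genes lie mostly above 0.

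Mesothelium, the outer lining of the gut, also makes Krt7, Krt8, Krt18 and Krt19. Of 12 mesothelial genes 8 rose and 1 fell, with a median of 0.51. Among all genes 8.95% were higher and 8.58% lower. Aldh1a2, which makes retinoic acid, rose by 0.52 (SE 0.07, adjusted p = 0.00265), Upk1b rose by 0.92 (SE 0.12, adjusted p = 0.00295), and the mesothelin gene Msln fell by 0.52 (SE 0.08, adjusted p = 0.00387). The summed linear signal of the list was 19917 to 22812 without Klf5 and 14601 to 16478 in the controls, with no overlap. A sum of this kind is weighted to the brightest rows, and signals of different rows are not on one scale. The count of mesothelial genes that rose was 3 without control replicate 2, 4 without control replicate 3 and 0 with the male share as covariate. Aldh1a2, Upk1b and Msln passed in each of the 6 fits with 1 array left out. The part of mesothelial RNA in the keratin values was not tested. Of the 10 genes that mark stratified epithelium 0 passed in limma's test and 0 had an unadjusted p under 0.05, with summed signals of 1533 to 2027 without Klf5 and 1561 to 1805 in the controls. Of smooth muscle genes 2 of 10 rose, with a median of 0.01 (1 rose without Klf5-deleted replicate 2 or 3 or control replicate 1 or 2, and 2 fell without Klf5-deleted replicate 3). Of mesenchymal genes 4 of 12 rose, with a median of 0.11, and of enteric neural genes 1 of 10, with a median of 0.12 (2 without Klf5-deleted replicate 1 or control replicate 3). Beside these counts stand the 8.95% of all genes that were higher, and 1 of 10 is near that share.

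For each keratin that passed, the 3 genes with the most alike profile were found among 18563 named genes outside the keratin family, by the root mean square distance over the 6 arrays between values centred on each gene's mean. Krt8 was followed most closely by Tnfrsf11a, which encodes the receptor RANK (0.034), the protease inhibitor gene Spint2 (0.038) and Myc (0.042). Spint2 was also nearest to Krt23 (0.028), followed by the peptidase gene Enpep (0.034) and the adaptor gene Stap2 (0.038). Krt19 lay nearest to A1cf, a cofactor of apolipoprotein B mRNA editing (0.051), Tmem238 (0.068) and Ccdc68 (0.070). Krt7 lay nearest to the intestinal transcription factor gene Cdx1 (0.044), the cell polarity gene Llgl2 (0.061) and the galectin gene Lgals12 (0.066). Krt18, with its smaller difference, lay nearest to Smtnl2 (0.015), the kinase gene Bmp2k (0.019) and the mitochondrial carrier gene Slc25a43 (0.022). These distances are in log2 units and describe 6 arrays in 2 groups, so they reflect above all a like difference between the groups.

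The falls of the 5 keratins held when any 1 array was left out. The log2 fold change then ran from −1.60 to −1.46 for Krt19, from −1.0 to −0.88 for Krt7, from −0.92 to −0.83 for Krt23, from −0.88 to −0.78 for Krt8 and from −0.40 to −0.33 for Krt18. The highest adjusted p in any of these fits was 0.0178, for Krt18 without control replicate 2.

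**Figure D5:**
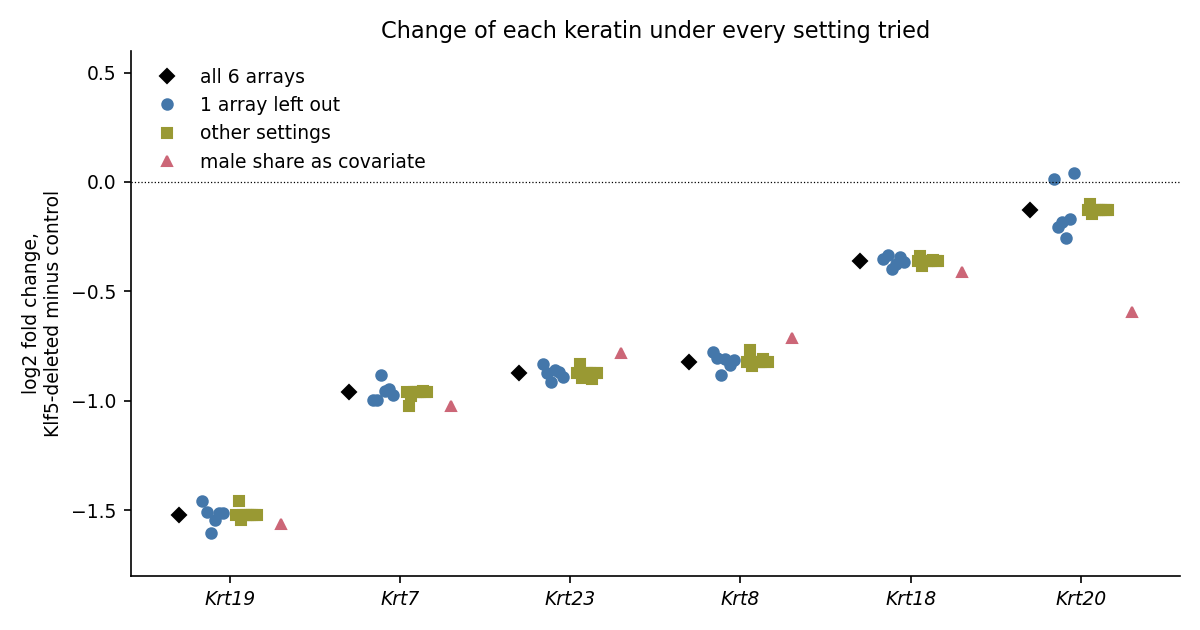
Log2 fold change of each keratin with all 6 arrays (diamonds), with 1 array left out (circles), under the other settings tried (squares) and with the male share in the fit (triangles). The values of Krt19, Krt7, Krt23, Krt8 and Krt18 stay below 0 throughout, and those of Krt20 lie on both sides of 0.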

How the data were processed

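Labelled RNA of 6 samples, 3 per group, was read on Affymetrix arrays. Per the submitters' processing notes, the authors used RMA and Affymetrix Expression Console 1.1, and the deposited values are log2 signals. RMA in general corrects background, equalises arrays by quantiles and summarises probes, so a shift shared by most genes is removed. Genome build and array annotation: not given in the sources used here. Array number limits precision.

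Of 35557 rows, 21789 carried 1 symbol in the platform annotation, 1621 several and 12147 none. Symbols were updated by gene ID through RefSeq GRCm38.p6 (21698 rows matched), and the brightest row per gene gave 19938 genes. Groups came from sample titles. limma 3.58.1 in R 4.3.3 compared them (lmFit, eBayes, group alone), with Benjamini-Hochberg adjustment over all genes and no filter. The pipeline was checked on simulated data. Differences between genes on an array used exact permutation tests (scipy 1.17.1). The members, lists and alternatives were chosen with earlier results of these data known. Genes named were the members, the 2 genes of each list with the smallest p, members moving against their list, Klf5, Epcam, Cdh1 and the nearest profiles. Others (Vim, Des, Krt5, Krt14, Krt74, the chromosomal neighbours and the remaining called list members) were chosen after their values were seen. Alternatives were 1 array left out, a replicate block, requantiling, median centring, dim genes left out, a trended robust variance, array weights, other rules for several rows and the male share. Of the lists, endothelial (0 of 8 passed; 1 at an unadjusted p under 0.05 in limma), red cell (2 of 5 rose, 0 without Klf5-deleted replicate 3, control replicate 1 or control replicate 2) and leukocyte genes (0 of 8; 0 at an unadjusted p under 0.05) were also read. Over all genes 8.95% were higher and 8.58% lower.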

Additional observations from a re-analysis of the deposited data

How the results depend on the processing

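With the male share added to the fit, Krt19 (−1.56), Krt7 (−1.02), Krt23 (−0.78), Krt8 (−0.72) and Krt18 (−0.41) kept their direction and did not pass, so 0 members were called. In that fit 83 genes passed in all, with 0 pan-epithelial, 0 desmosome and plakin, 0 other intermediate filament and 2 keratin-binding genes. The SE of Krt19 was 0.21 in it, against 0.08 with group alone. Every Klf5-deleted pool had a higher male share than any control, so this fit cannot tell sex and genotype apart, and the cause was not tested. Krt20 ran from −0.25 to 0.043 with 1 array left out, turning to 0.013 without Klf5-deleted replicate 1 and to 0.043 without control replicate 3. The number of genes called was 2000 to 2757 with 1 array left out, against 3496. Same-numbered arrays did not deviate together (correlations over genes of −0.14, −0.27 and −0.03), so the replicate number was not taken as a pairing. With it as a block 5 keratins were called, with 2008 genes, 3 keratin-binding genes and 0 other intermediate filament genes. The keratin-binding count, 5 as reported, was 3 to 5 with 1 array left out. It was 9 with the intensity trend, with the lowest 50% of genes left out or at an adjusted p of 0.1. These 9 were 7 lower and 2 higher in each of those settings. Without Klf5-deleted replicate 1 the 5 were 4 lower and 1 higher. The other intermediate filament count, 1 as reported, was 0 to 2 with 1 array left out, 2 with array weights or median centring (2 lower and 0 higher with centring), 4 with the intensity trend or quantile normalization, 5 with the lowest 25% or 50% left out and 6 at an adjusted p of 0.1. Krt23 was not among the genes tested with the lowest 50% left out. Of the desmosome and plakin genes, 8 lower and 0 higher as reported, 1 was higher with array weights, with the intensity trend and at an adjusted p of 0.1. The same held without Klf5-deleted replicate 1. With the lowest 50% left out 6 were lower and 1 higher. The number of keratin pairs whose groups did not overlap was 11 to 13 with 1 array left out, and that against Epcam and Cdh1 was 3 to 4. Quantile normalization and median centring moved the median of all genes by −0.01 and −0.02.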

Other observations

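Chosen after the values were seen, the genes with the profiles nearest to Krt20 were the phosphatase gene Phospho1 (distance 0.066), the Z-disc gene Myot (0.094) and Mkrn1-ps1 (0.095). Myot read 6.36, 6.74 and 6.64 without Klf5 and 6.57, 6.44 and 7.05 in the controls, and Phospho1 read 7.45, 7.83 and 7.70 against 7.63, 7.75 and 8.07. These genes were picked for a like profile over the same 6 arrays, so their likeness to Krt20 is a description and no support for a shared pattern. Krt5, a basal keratin gene, read 7.34, 8.01 and 8.84 without Klf5 and 7.71, 7.65 and 8.28 in the controls, a wider spread within groups than that of 99.8% of genes.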
